A study of Mus musculus with 3 samples.

Results

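The Icam1 Fabp4 preadipocytes without Cxcl9 were 4228 of the 34577 cells kept from the inguinal subcutaneous fat of 3 mice. A cell was a member when its raw unique molecular identifiers (UMIs, counts of captured transcripts) of Icam1 and Fabp4 summed to at least 4, with at most 1 UMI of Dpp4, at most 1 of Cited1 and none of Clec11a or Cxcl9. These are measured values, so the levels of these 6 genes in the members describe the choice and were not tested. The mice were wild-type C57BL/6J males, 8 weeks old, and each gave 1 droplet single-cell RNA library (10x Genomics) of the stromal vascular fraction, the cell pellet left after collagenase digestion once the floating adipocytes are removed. Cells had been sorted as CD31- CD45-, that is without the surface markers of endothelial and blood cells. There was 1 condition, so all comparisons below are between sets of cells taken from the same animals.

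Each set was chosen on UMIs in the same way. Progenitors had Dpp4 and Pi16 summing to at least 3 and Icam1 and Fabp4 to at most 1, which held for 19931 cells. Cxcl9-positive preadipocytes met the members' limits on Icam1, Fabp4, Dpp4, Clec11a and Cited1 but had at least 2 UMIs of Cxcl9, which held for 502 cells. Cited1-positive preadipocytes met all other limits with at least 2 UMIs of Cited1, in 186 cells, and Clec11a-positive cells had at least 2 UMIs of Clec11a and at most 1 of Dpp4, in 1132 cells.

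Fat cells arise from fibroblast-like stromal cells. Dpp4 and Pi16 mark interstitial progenitors, and Icam1 marks preadipocytes, cells already directed toward the adipocyte fate. Pparg, a nuclear receptor, drives the adipocyte program together with C/EBP factors, and Fabp4, a carrier of fatty acids, is one of its classic targets. Cxcl9 is a chemokine induced by interferon-gamma, Clec11a marks the cells called adipogenesis-regulatory, and Cited1 is a transcriptional co-regulator.

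The members made up 13.1% of kept cells in mouse 1 (1699 of 12984 cells, exact Clopper-Pearson 95% interval 12.5 to 13.7%), 15.8% in mouse 2 (1014 of 6414, 14.9 to 16.7%) and 9.98% in mouse 3 (1515 of 15179, 9.51 to 10.5%). The mean was 13.0 ± 2.92% (SD, n = 3), and the intervals, which cover counting error only, did not overlap. The members held 13409525, 13057278 and 10704982 UMIs in mice 1, 2 and 3. Their median depth was 7917, 12784 and 7222 UMIs per cell, against 7327, 12056 and 6687 in the progenitors, so mouse 2 was the deepest library in both sets and the members were the deeper set in each mouse. The whole libraries held 95899433, 79801002 and 100846072 UMIs in 13698, 6872 and 16220 barcodes, and 52 barcodes occurred in both mice 1 and 2, 81 in mice 1 and 3 and 64 in mice 2 and 3.

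A cell could enter by either gene. Both genes were detected in 62.3%, 62.6% and 60.5% of members in mice 1, 2 and 3. Icam1 was at 0 in 24.1%, 18.7% and 14.9% and Fabp4 at 0 in 13.6%, 18.6% and 24.6%, so the order of the mice ran opposite ways for the 2 genes. The median member held 3, 4 and 4 UMIs of Icam1 and 7, 9 and 5 of Fabp4. Icam1 (chr9:21015985-21028817, GRCm38, + strand) encodes an adhesion molecule for leukocytes, and Fabp4 lies at chr3:10204088-10208576 (- strand).

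Genes that identify the members were also present in cells just below the threshold. At 3 summed UMIs of Icam1 and Fabp4 (501 cells) Col15a1 averaged 674 ± 122 CPM (the gene's UMIs per 1000000 UMIs of the summed cells, mean ± SD over 3 mice) and at 4 (404 cells) 718 ± 121. Txnip averaged 721 ± 111 and 857 ± 105 CPM at 3 and 4 UMIs, and the progenitor gene Anxa3 184 ± 19.9 and 153 ± 11.3 CPM. The ranges of mean ± SD on the 2 sides of the threshold overlapped for all 3 genes, although Col15a1 climbed and Anxa3 declined in each mouse. Sums cannot tell a gradual change within cells from a changing mixture of cells, and this was not tested.

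**Figure D1:**
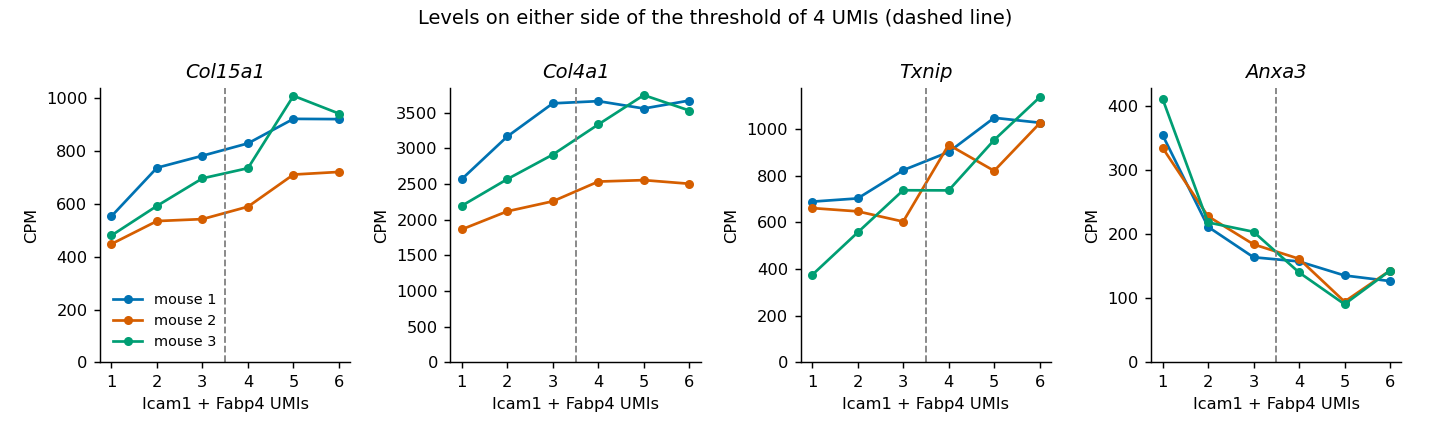
Levels (CPM, linear axes) of Col15a1, Col4a1, Txnip and Anxa3 in cells with 1 to 6 summed UMIs of Icam1 and Fabp4 that meet the other limits; each line is 1 of 3 mice and the dashed line is the threshold between 3 and 4. Between 3 and 4 UMIs Col15a1 and Col4a1 climbed and Anxa3 declined in each mouse, and Txnip climbed in mice 1 and 2 and stayed at 737 CPM in mouse 3.

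Genes of other cell types were also measured in the members. Sorting as CD45- and removal of floating adipocytes deplete blood cells and adipocytes from every set. Absence of their genes therefore does not check the label preadipocyte. Of the 14 listed genes of mature adipocytes, those of the hormones and the Plin1 coat were at or near 0: Adipoq, the hormone adiponectin, stood at 0, 0.460 and 0.0934 CPM in mice 1, 2 and 3, Plin1 at 0.373, 0.383 and 0.374 CPM, and Lep had no UMI in any mouse. Others of the list were present, and it summed to 237, 168 and 168 CPM in members against 11.1, 7.42 and 6.02 CPM in progenitors. Aoc3, an amine oxidase, stood at 152, 127 and 126 CPM in members and Car3, a carbonic anhydrase, at 71.5, 26.2 and 28.9 CPM. Ptprc, the CD45 gene, was found in 1 of the 1515 members of mouse 3 and in none of mice 1 and 2. Among the 19931 progenitors, 3 had a Ptprc UMI and 0 an Adipoq UMI. The 10 listed genes of cycling cells gave no difference from the progenitors that passed the test described below.

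Some members carried transcripts of endothelial, mural or muscle cells. At least 1 UMI of a gene taken as a marker of another cell type was present in 10.0%, 18.8% and 8.98% of members in mice 1, 2 and 3. The shares in progenitors were 2.44%, 3.10% and 1.6%. The most frequent of these genes was the mural gene Notch3, found in 8.97 ± 4.10% of members (mean ± SD over mice). It was found in 10.9 ± 6.31% of Cxcl9-positive, 14.1 ± 5.92% of Cited1-positive and 3.54 ± 1.87% of Clec11a-positive cells. Notch3 therefore does not by itself mark mural cells, and these shares are not shares of members with foreign RNA. The 12 endothelial markers summed to 19.6, 63.0 and 8.87 CPM in members and 9.55, 3.28 and 3.37 CPM in progenitors, led in members by Cldn5. Their defining genes Pecam1 and Cdh5 were not at 0: Pecam1 stood at 1.64, 6.66 and 0.747 CPM and Cdh5 at 2.83, 7.58 and 0.654 CPM. The 11 mural markers summed to 118, 76.5 and 139 CPM against 28.4, 26.4 and 37.5 CPM, led by Abcc9. Abcc9 averaged 48.4 ± 12.9 CPM in members and 46.4 ± 15.0, 53.6 ± 25 and 48.7 ± 15.9 CPM in Cxcl9-positive cells, Clec11a-positive cells and the Icam1-leaning members described below, so it does not by itself mark mural cells. Cells with at least 5 UMIs over 4 endothelial genes numbered 9, 18 and 3 among members, and those with at least 5 over 4 mural genes 9, 6 and 6. A single member of mouse 2 held 1125 of the 1285 Myl1 UMIs and 1309 of the 1332 Acta1 UMIs of that mouse's members; both genes encode skeletal muscle proteins. The comparisons were therefore repeated without these cells, and the results that changed are given where they occur.

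The 6 genes chosen to mark these cells, Col15a1, Col4a1, Txnip, G0s2, Ntf3 and Enpp2, were picked with results of these data known, so their levels are a description. Col15a1 encodes the core protein of the basement membrane collagen type XV and lies at chr4:47208161-47313167 (GRCm38, + strand). Its level was 1013, 852 and 1108 CPM in the members of mice 1, 2 and 3 and 41.7, 22.2 and 29.8 CPM in the progenitors. Col4a1 (chr8:11198423-11312826, - strand), a chain of the collagen IV network, stood at 3967, 2946 and 4121 against 407, 233 and 259.9 CPM. All 3 mice were higher in the members for both genes, with no overlap. Col4a2 (chr8:11312805-11449287, + strand), the partner chain, is transcribed from the opposite strand, and the annotated first exons of the 2 genes share 22 bases. It stood at 1843, 1250.1 and 1808 against 162, 80.8 and 95.2 CPM, with the members again higher in each mouse.

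Enpp2 (chr15:54838901-54952892, - strand) encodes autotaxin, the secreted enzyme that makes lysophosphatidic acid. It stood at 352, 354 and 455 CPM in members and 22.2, 13.3 and 16.8 CPM in progenitors. Ntf3 (chr6:126101412-126166910, - strand), the neurotrophin NT-3, stood at 79.2, 74.4 and 54.6 against 5.30, 3.96 and 1.65 CPM. Both were higher in the members of every mouse, and mouse 3 had the highest Enpp2 and the lowest Ntf3. G0s2 (chr1:193272161-193273217, - strand), an inhibitor of the triglyceride lipase ATGL, stood at 266, 324 and 209 against 17.1, 17.2 and 9.51 CPM.

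Txnip (chr3:96557957-96561883, + strand) encodes thioredoxin-interacting protein, an arrestin-like brake on glucose uptake that is itself switched on by glucose through the ChREBP and Mlx factors. It stood at 1206, 1159 and 1220.3 CPM in members and 167, 163 and 114 CPM in progenitors, and it was the steadiest of the 6 genes over the mice. Its promoter is shown because glucose-response elements of this kind are pairs of E-box-like motifs. The 250 bases before the start site (RefSeq, GRCm38.p6, chr3:96557707-96557956, + strand, 5′ to 3′) are given with the pair in capitals.
Txnip: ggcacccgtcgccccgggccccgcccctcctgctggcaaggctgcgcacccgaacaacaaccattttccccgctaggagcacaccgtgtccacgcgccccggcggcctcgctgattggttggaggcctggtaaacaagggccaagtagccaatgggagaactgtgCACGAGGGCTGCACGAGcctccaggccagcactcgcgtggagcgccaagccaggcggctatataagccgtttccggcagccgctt
The capitals run from 85 bases before the start site and hold the letters CACGNG, 5 bases, and CACGNG again. This arrangement was searched on both strands of the RefSeq windows from 250 bases before to 50 after each start, and 16 of 32851 promoters (0.0487%) held it. The single motif CACGNG, which the pair contains, was in 27.5% of promoters. Of the 10 listed genes of the arrestin-domain and glucose-sensing set, Txnip alone held the pair. A match is a description of the letters in this window.

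At equal depth the markers were also seen in more cells. With each cell thinned to 3000 UMIs, a UMI of Col4a1 was found in 98.6 ± 0.688% of members and 40.9 ± 6.96% of progenitors (mean ± SD, n = 3 mice). Col15a1 was found in 88.0 ± 1.73% against 6.08 ± 1.74%, Txnip in 71.5 ± 6.09% against 24.8 ± 4.34% and Enpp2 in 56.6 ± 4.23% against 4.14 ± 0.854%. G0s2 was found in 33.2 ± 5.80% against 3.00 ± 0.865% and Ntf3 in 18 ± 4.24% against 0.998 ± 0.490%, so most members had no UMI of either at this depth. Before thinning, the shares in members were 95.8 ± 1.15% for Col15a1, 82.3 ± 6.13% for Txnip and 39.7 ± 11.1% for Ntf3. For comparison, Pecam1 was found in 0.153 ± 0.0427% of thinned members and Adipoq in 0.0336 ± 0.0582%. Both are scarce in a suspension sorted as CD31- and freed of floating adipocytes, so they do not measure free RNA of stromal genes, which was not tested. Thinning left out 47, 22 and 54 members with fewer than 3000 UMIs.

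The marker genes were also measured in the related cells. Col15a1 averaged 981 ± 129 CPM in Cxcl9-positive preadipocytes and 477 ± 72.2 CPM in Clec11a-positive cells, against 991 ± 129.5 CPM in members. Enpp2 averaged 387 ± 59.0, 349 ± 65.6 and 62.2 ± 5.49 CPM in members, Cxcl9-positive and Clec11a-positive cells. Col4a1 averaged 3678 ± 639, 3853 ± 822 and 1479.6 ± 363 CPM. Cited1-positive cells numbered 147, 14 and 25 in mice 1, 2 and 3, too few in mouse 2 to give a value. In mice 1 and 3 their Ntf3 stood at 7.15 and 4.59 CPM, against 79.2 and 54.6 CPM in members. Over all 3 mice, with the 14 cells of mouse 2, a UMI of Ntf3 was found in 19.8 ± 26.2% of Cited1-positive cells. This SD exceeds the mean, so the mice differed widely. After thinning the share was 3.06 ± 3.68%. Other markers were as frequent in Cited1-positive cells as in members at this depth. Col15a1 was found in 92.7 ± 0.617% against 88.0 ± 1.73%, Col4a1 in 96.1 ± 3.23% against 98.6 ± 0.688% and Txnip in 77.2 ± 9.38% against 71.5 ± 6.09%. Enpp2 was less frequent, at 25.6 ± 9.45% against 56.6 ± 4.23%, and G0s2 stood at 27.1 ± 26.3% against 33.2 ± 5.80%. The matrix gene Postn stood at 8027 and 4152 CPM in Cited1-positive cells of mice 1 and 3 and at 751 and 447 CPM in members. The growth factor Ptn stood at 266 and 165 against 6.79 and 9.25 CPM. These values are given as a description, and the fit on mice 1 and 3 is not used here.

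**Figure D2:**
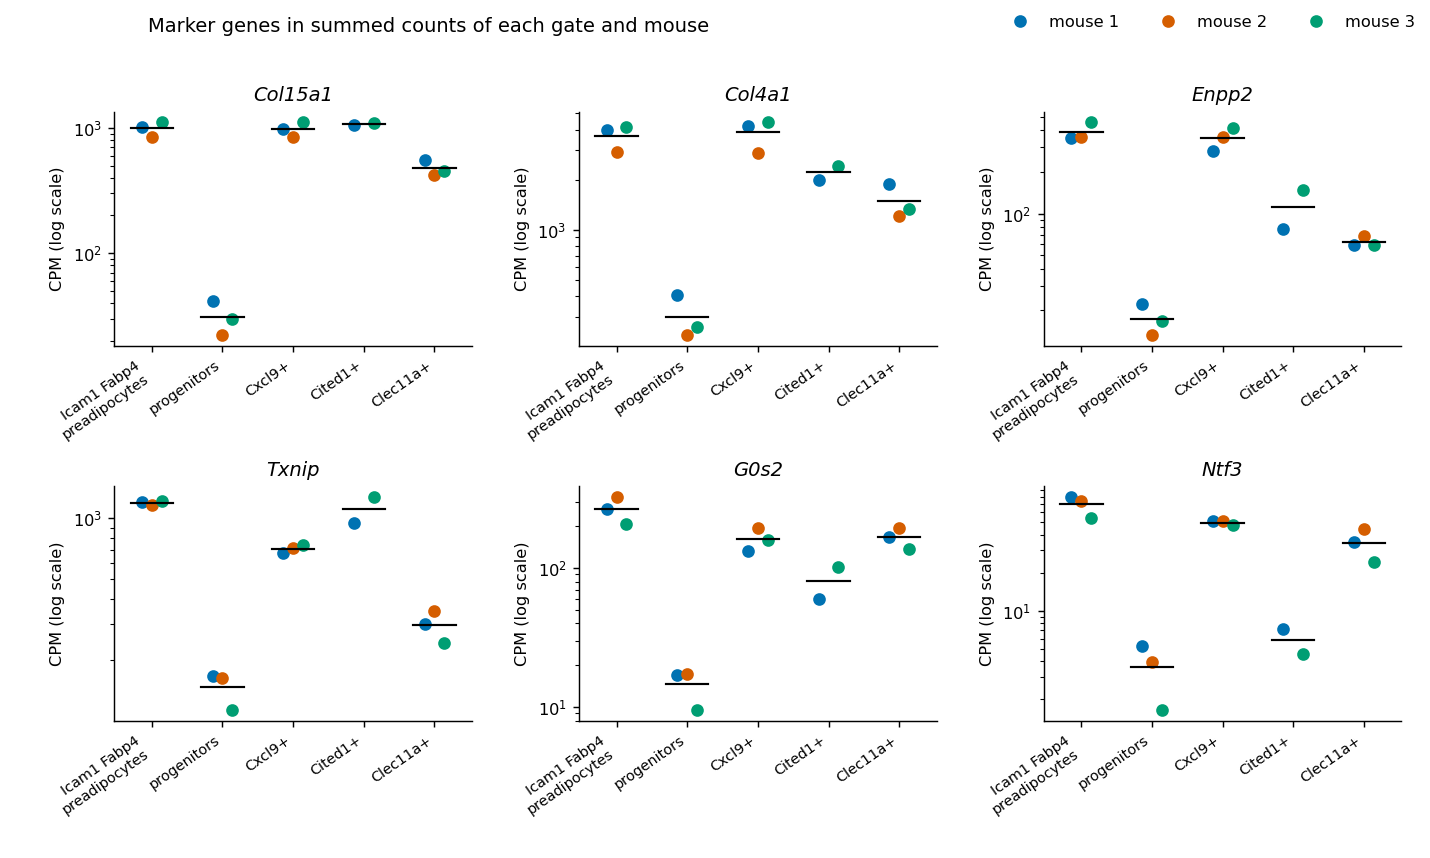
Level (CPM of the summed cells, log axes) of the 6 marker genes in members, progenitors, Cxcl9-positive, Cited1-positive and Clec11a-positive cells; each point is 1 mouse and the bar is the mean, with no mouse 2 value for Cited1-positive cells. Members lie above progenitors for all 6 genes in each mouse. The Ntf3 points of Cited1-positive cells lie below those of members but rest on few UMIs and do not describe mouse 2. An Ntf3 UMI was found in 16 of the 186 Cited1-positive cells. Their share per mouse averaged 19.8 ± 26.2% with mouse 2 included, so the mice differed widely.

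For the comparison with progenitors, UMIs were summed per mouse and tested for each gene by edgeR's quasi-likelihood test with mouse as a block, and p-values were adjusted by Benjamini-Hochberg over all genes tested. Because cells were chosen on Icam1, Fabp4, Dpp4 and Pi16, genes that follow these from cell to cell differ by that choice, and the p-values measure how repeatable a difference was over 3 mice. A sum cannot tell fewer cells with a transcript from fewer transcripts per cell. At an adjusted p under 0.05, 3742 of 13263 genes were higher in members (28.2%) and 3811 lower (28.7%), together 56.9%. Against so high a background, the count of called genes in a list says little, and the sizes of the differences are described instead. Log2 fold changes are given ± SE, members over progenitors.

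The 12 largest rises among genes of at least 50 CPM were between 4.69 and 6.76 on the log2 scale. They met the limit of 50 CPM through the members, so their sizes and order are a description. Olfm2, a secreted olfactomedin, led them with 85.5, 80.0 and 55.6 CPM in members of mice 1, 2 and 3 against 1.2, 0.336 and 0.388 CPM. Its log2 fold change was 6.76 ± 0.20. Cldn15, a claudin of tight junctions, stood at 70.0, 90.7 and 60.6 against 0.871, 0.595 and 0.936 CPM (6.40 ± 0.15). Progenitors were at or near 1 CPM for both genes in each mouse, so these folds rest on few progenitor UMIs. The 2 subunits of the nitric oxide receptor guanylate cyclase, Gucy1a1 (6.33) and Gucy1b1 (5.19), rose together, and Gucy1a1 stood at 119, 49.0 and 78.2 CPM in members. Lamc3, a laminin chain (6.27), Fbln7, a fibulin (6.22), Adam12, a metalloprotease (5.31), and Sparcl1, a secreted matrix protein (5.39), also rose, as did Trabd2b, an inhibitor of Wnt ligands (5.20), and Arc, an immediate early gene (4.69). Sparcl1 was the most abundant of them, at 1593, 881 and 1209 CPM against 47.5, 18.6 and 24.1 CPM.

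The 12 largest falls, which met the same limit through the progenitors, reached -6.07. Sema3e, a secreted semaphorin, stood at 1.72, 0.842 and 1.68 CPM in members against 99.0, 70.4 and 108 CPM, a log2 fold change of -6.07 ± 0.10 (edgeR, adjusted p 5.01e-08), and Sema3d was also lower (-5.38). The neighboring genes Krtdap (-5.93), Dmkn (-5.37) and Sbsn (-5.07), known from skin, fell alike. Sbsn kept 17.3, 9.73 and 17.4 CPM in members against 477, 483 and 473 CPM. Bmp7, a bone morphogenetic protein (-5.31), Akr1c18, a steroid dehydrogenase (-5.50), Aldh1a3, which makes retinoic acid (-5.00), and the sulfotransferase Chst1 (-5.34) were also among them, with Islr2 (-5.19), Limch1 (-5.10) and the ubiquitin hydrolase Uchl1 (-5.04). All 20 listed progenitor genes passed the test and were lower, with a median of -3.54 against 0.02 over all genes tested. The list, which includes Bmp7, Akr1c18 and Limch1, was chosen with earlier results of these data known. As the progenitors were also chosen on Dpp4 and Pi16, this count describes the choice. Anxa3, an annexin, stood at 111, 67.7 and 89.2 against 1416, 1486 and 1525 CPM. Cd55, a complement brake, stood at 119, 56.1 and 115 against 839, 474 and 1071 CPM, and the protein C receptor gene Procr fell by 3.18 on the log2 scale.

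Adipogenic regulators changed in both directions. Pparg (chr6:115360951-115490399, + strand) stood at 53.5, 50.1 and 46.3 CPM in members of mice 1, 2 and 3 and 3.63, 2.95 and 3.86 CPM in progenitors, a log2 fold change of 3.80 ± 0.10 (edgeR, adjusted p 6.83e-08). The members of all mice were above all progenitors, within a narrow range. Cebpa, its partner, stood at 33.6, 45.1 and 31.8 against 12.8, 12.6 and 10.3 CPM (1.58 ± 0.09), and the oxysterol receptor Nr1h3 rose by 1.30. Of the early C/EBP factors, Cebpd was higher (0.58) and Cebpb lower (-0.78). Ebf2, a factor of early adipose commitment, fell by 1.03 and the AP-1 member Fosl2 by 2.12 on the log2 scale. In all, 9 of 22 listed regulators were higher and 7 lower, and of the 15 inhibitors of adipogenesis tested 7 were higher and 6 lower.

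Genes of lipid uptake and esterification were mostly higher. Of 15 genes 13 were higher and 2 lower, with a median of 1.2. The 13 include Gpihbp1, one of the 4 endothelial genes used above. It had 37, 168 and 14 UMIs in members of mice 1, 2 and 3 and 9, 3 and 6 in progenitors. Its test rested mainly on the members' counts, so its call is not read as a result. The fatty acid transporter Cd36 (chr5:17781690-17888801, - strand) stood at 241, 96.7 and 135 CPM in members and 5.02, 1.76 and 1.52 CPM in progenitors (5.86 ± 0.14), with mouse 1 well above the others. Cd36 is also abundant in capillary endothelium, and without cells carrying any other-cell marker UMI its log2 fold change was 5.81. Lpl, which frees fatty acids from lipoproteins, stood at 3172, 2737 and 2951 against 456, 428 and 367 CPM (2.79 ± 0.07). Angptl4, an Lpl inhibitor and Pparg target, rose by 2.81 and Apoe by 4.22. Dgat1, which completes triglycerides, was lower (-1.34).

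Storage genes were mixed. Plin2, the droplet coat of cells that are not fat cells, stood at 665, 645 and 729 CPM in members against 58.9, 47.0 and 47.2 CPM (3.71 ± 0.09), and Plin4 rose by 5.11. Mgll, the monoglyceride lipase, went the other way, from 132, 126 and 159 CPM in progenitors to 16.4, 18.2 and 16.6 CPM (-3.05 ± 0.09). Of 11 droplet and lipolysis genes 6 were higher and 4 lower. Fatty acid synthesis had 6 higher and 4 lower of 12, with a median of 0.13, and the desaturase Scd1 was among the lower (-1.50). Of the 14 mature adipocyte genes, Aoc3 was higher (4.34). Car3, Trarg1 and Cfd were near 0 in progenitors and passed the filter on low counts through the members, so their calls are not counted. Their log2 fold changes were 5.77, 5.54 and 2.28. That of Cfd was 1.41 without mouse 2, short of the test.

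Sterol synthesis genes were almost all higher. Of 21 genes 20 were higher and none was lower, with a median of 1.41. Hmgcs1, which makes the first committed precursor, stood at 352, 202 and 341 CPM in members against 65.7, 46.1 and 70.9 CPM (2.24 ± 0.07). Sqle, a squalene oxidase, stood at 76.4, 66.2 and 80.7 against 12.7, 13.8 and 14.3 CPM (2.42 ± 0.07). The groups did not overlap for either gene. The SREBP anchor gene Insig1 rose by 1.41.

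**Figure D3:**
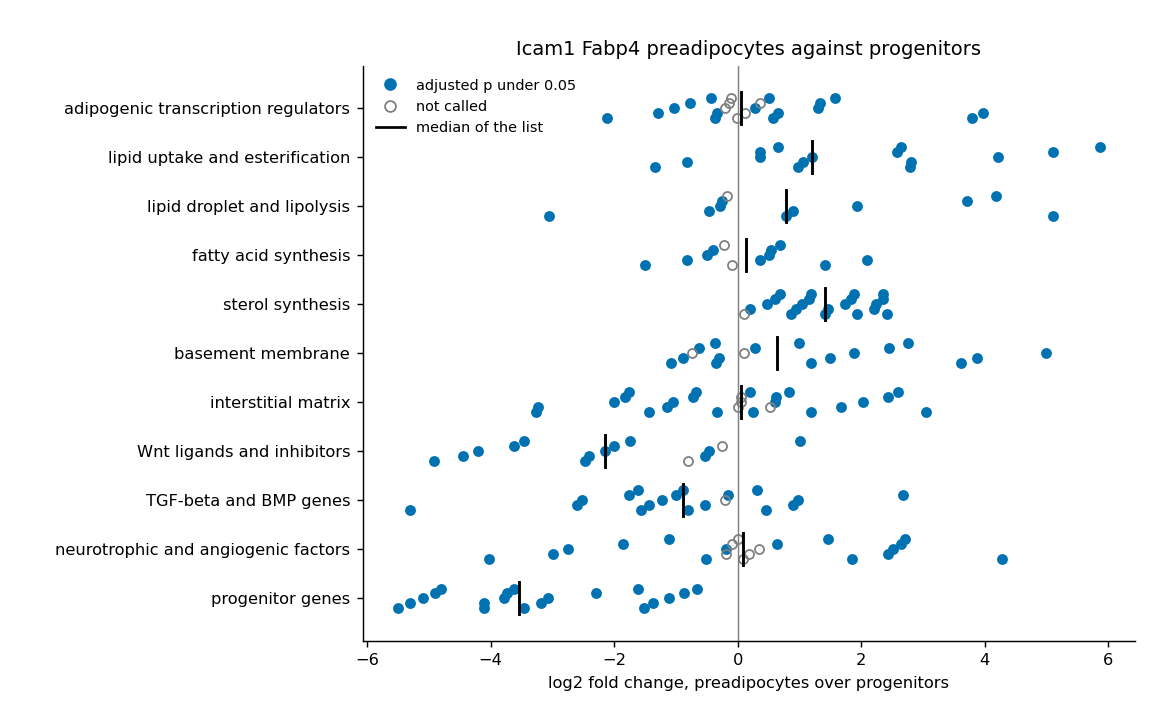
Log2 fold change of members over progenitors (x axis) for the tested genes of 11 lists; each point is 1 gene, filled where the adjusted p was under 0.05 (edgeR, n = 3 mice), and the bar is the list's median. The progenitor genes all lie left of 0, the sterol genes right of it, and regulators, droplet and matrix genes spread to both sides.

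Matrix genes changed in both directions within each family. Among basement membrane genes 10 of 18 were higher and 6 lower: besides the collagens above, Col18a1 rose by 2.45 and the perlecan gene Hspg2 by 1.50, while Nid1, a linker of laminin to collagen IV (-0.62), and Lamb2 (-1.08) fell. Interstitial genes divided 11 higher to 11 lower of 26. The small proteoglycans Lum (2.43) and Bgn (3.05) and Col6a3 (2.03) were higher. Fn1, fibronectin, stood at 731, 419 and 646 CPM in members against 5251, 5031 and 5765 CPM in progenitors (-3.23 ± 0.13). Col14a1 (-3.26) and the fibrillin gene Fbn1 (-1.82) were also lower. Of the mesenchymal surface genes, Vcam1 rose by 3.05 and Pdgfrb by 1.26, and 8 of 11 were higher.

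Secreted signals also changed. Wnt genes were mostly lower, 12 of 15 with 1 higher and a median of -2.14: Wnt10b, a ligand that blocks adipogenesis, stood at 1.94, 1.23 and 1.59 CPM against 46.6, 44.9 and 50.2 CPM (-4.92 ± 0.11). The Wnt binders Sfrp2 (-3.63) and Sfrp4 (-4.45) fell as well, so ligands and inhibitors were both lower. TGF-beta and BMP genes had 13 lower and 5 higher of 19. In the insulin and IGF set 5 of 14 were higher, with Igf1 (0.84) and Igfbp7 (2.67) among them, and 8 lower, with Igfbp4 (-2.23).

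Of 21 neurotrophic and angiogenic factors, 8 were higher and 7 lower. Beside Ntf3 (4.28), Kitl, the stem cell factor gene (2.65), and Fgf10, a growth factor that acts on adipose precursors (2.44), rose too. Fgf10 stood at 157, 40.8 and 70.2 CPM in members against 22.0, 12 and 11.1 CPM, with mouse 1 above mice 2 and 3. The placental growth factor gene Pgf fell by 4.02 and Fgf2 by 2.99 on the log2 scale. In the lysophosphatidic acid pathway, the phosphatase gene Plpp1 rose (2.97) and Plpp3 fell (-1.59), beside the rise of Enpp2 (4.45). Of genes that mark adipogenesis-regulatory cells, 8 of 10 were higher in members than in progenitors, although no member had a Clec11a UMI. The homeobox gene Meox1, in this count, stood at 22.1, 31.7 and 26.9 CPM against 0.426, 0.259 and 0.436 CPM. As Meox1 was near 0 in progenitors, it could be tested mainly through the members, and its values are a description. F3, tissue factor, stood at 61.0, 94.6 and 48.0 against 16.9, 15.6 and 14.9 CPM, and at 374, 258 and 215 CPM in Clec11a-positive cells.

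Inflammatory and stress genes did not share a direction. Interferon-gamma response genes had 10 higher and 2 lower of 17, although cells with any Cxcl9 UMI had been left out: the GTPase gene Iigp1 rose by 1.95 and Irgm1 by 1.64, while the chemokine gene Cxcl10 fell by 0.94 on the log2 scale. NF-kB targets had 4 higher and 10 lower of 18, with Ccl2 at 494, 739 and 1166 CPM against 1615, 2210.1 and 3303 CPM. Genes that respond to tissue dissociation had 14 higher, with Jun (1.45) and Hspa1a (1.25), and 5 lower of 22. The orphan receptor genes Nr4a1, Nr4a2 and Nr4a3 were among the lower, Nr4a3 falling from 296, 398 and 426 to 18, 28.0 and 37.5 CPM. How much of these levels comes from the digestion was not tested.

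The lists of other cell types were mixed in the same comparison. Most endothelial markers were near 0 in progenitors and could be tested mainly through the members' counts, so no count of calls is given for them. Kdr, a receptor for VEGF, stood at 1.64, 6.36 and 0.467 CPM in members against 7.41, 1.53 and 2.31 CPM, and did not pass the test (-0.38 ± 0.72, edgeR, adjusted p 0.675). It was lower without mouse 2 (-2.26, edgeR, adjusted p 0.000987) and once cells carrying other-cell UMIs were left out (-4.01), while its log2 fold change was 0.66 without mouse 1, short of the test. Mural markers had 7 of 10 higher in members and 2 lower, with 2 higher once cells carrying other-cell UMIs, chosen in part by these genes, were left out. None of 3 tested leukocyte genes passed the test, 1 of 2 mesothelial and epithelial genes was lower (the keratin gene Krt19), and Schwann cell genes had 3 higher and 2 lower of 5. Complement genes had 4 higher and 6 lower of 12, the lysophosphatidic acid pathway 4 higher and 2 lower of 8, and the arrestin-domain and glucose-sensing set 3 higher and 3 lower of 10.

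The study separated preadipocytes into high and low Cd44 cells, with Noct, Ptx3 and Mt2 listed for the former and Txnip and G0s2 for the latter, a set it chose on these samples and so not independent evidence here. The study also measured these genes by quantitative RT-PCR in cells sorted on ICAM1 and CD44 surface protein. Here only RNA was measured, and cells were not divided by Cd44. Against progenitors, Noct, nocturnin, a circadian gene, rose by 1.83 in members, and Cd44, the hyaluronan receptor, by 0.61, with overlapping mice. The metallothionein gene Mt2 was lower (-0.64), and the pentraxin gene Ptx3 was higher by 0.23, a call lost without mouse 2 (edgeR, adjusted p 0.0561). Mice overlapped for Mt2 and Ptx3 as well.

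The second comparison asked what else differed when Cxcl9 did. The members' sums are the same ones as above, the Cxcl9-positive sums hold fewer cells, and log2 fold changes are members over Cxcl9-positive cells. Of 11339 genes 145 were higher in members (1.28%) and 664 lower (5.86%), together 7.13%; with library sizes alone as the scaling the split was 335 higher and 500 lower. Without mouse 2 the counts were 63 and 397, and without mouse 1 98 and 441. All 17 tested interferon-gamma response genes passed the test and were lower in members, with a median of -1.71 against -0.000321 over all genes tested. As Cxcl9 belongs to this response and chose the cells, this count describes the choice. Cxcl10 (chr5:92346638-92348889, - strand), a chemokine of the same receptor as Cxcl9, stood at 225, 166 and 211 CPM in members against 1648, 2228 and 1714 CPM, a log2 fold change of -3.30 ± 0.10 (edgeR, adjusted p 3.29e-18). The 2 sets did not overlap.

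The 8 largest falls at 50 CPM or more were in genes known to be induced by interferon. After Cxcl10 came Ifit1, a sensor of foreign RNA, at 53.0, 66.6 and 43.6 CPM against 391, 535 and 358 CPM (-3.06 ± 0.07), and its relative Ifit3 (-2.35). The GTPase genes Iigp1 (-2.33), Gbp2 (-2.03), Irgm1 (-1.99) and Ifi47 (-1.94) and the ubiquitin-like Isg15 (-2.09) followed. Members and Cxcl9-positive sums did not overlap for any of the 8. The transcription factor gene Irf1 was lower too (-1.24), as was the immunoproteasome gene Psmb8 (-0.52).

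Promoter stretches of 6 of these 8 genes are shown, since interferon-induced genes are known for a repeated GAAA element. The letters GAAA, any 2 bases and GAAA were searched on both strands of the RefSeq windows (GRCm38.p6, 250 bases before to 50 after the start), and 1131 of 32851 promoters (3.44%) held them. Of the 7 named genes with an entry 6 did, and so did 9 of 14 listed interferon-gamma response genes with an entry. Each line runs 5′ to 3′ on the gene's strand, and the capitals mark the matches, those of TTTC, 2 bases and TTTC being the same element read on the other strand. The stretches lie at chr5:92349068-92349127 (- strand), chr19:34640760-34640819 (+), chr19:34583348-34583416 (+), chr4:156200862-156200921 (-), chr3:142620579-142620638 (+) and chr11:48871416-48871475 (-).
Cxcl10: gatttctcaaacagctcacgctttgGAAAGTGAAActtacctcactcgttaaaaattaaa
Ifit1: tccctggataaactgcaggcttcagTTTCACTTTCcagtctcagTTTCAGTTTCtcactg
Ifit3: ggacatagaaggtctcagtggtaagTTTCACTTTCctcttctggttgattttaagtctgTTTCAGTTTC
Isg15: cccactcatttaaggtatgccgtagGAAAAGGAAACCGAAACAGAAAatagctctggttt
Gbp2: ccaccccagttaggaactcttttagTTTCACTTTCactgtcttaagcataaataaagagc
Irgm1: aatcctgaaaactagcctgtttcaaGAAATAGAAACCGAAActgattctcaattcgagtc
Ifit1 and Ifit3 hold 2 separate matches in these stretches, and the matches of Isg15 and Irgm1 overlap each other. The first capital lies 30 bases before the start site in Irgm1 and 213 bases before it in Cxcl10. A match is a description, and no factor was measured.

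Most NF-kB targets and complement genes, listed apart from the interferon-gamma genes, were lower in members too. Whether they follow Cxcl9 as part of the same response was not tested. Of 18 NF-kB targets 14 passed the test and were lower, none higher, with a median of -0.72. The monocyte chemokine gene Ccl7 stood at 751, 1334 and 1555 CPM in members against 2048, 4151 and 3275 CPM (-1.48 ± 0.06), and Ccl2 (-1.21), Il6 (-1.2) and Cxcl1 (-0.81) were lower. Of 12 complement genes 8 were lower, including the factor B gene Cfb (-1.0), C4b (-0.94) and C3 (-0.67). None of the 21 sterol genes passed the test in either direction.

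All 6 genes of the study's Cd44 set passed the test here. Ptx3 stood at 705, 712 and 971 CPM in members and 1536, 1557 and 1987 CPM in Cxcl9-positive cells (-1.18 ± 0.04). Noct stood at 105, 88.3 and 141 against 171, 185 and 179.6 CPM (-0.81 ± 0.09) and Cd44 at 61.5, 74.7 and 97.7 against 106, 149 and 111 CPM (-0.77 ± 0.10). Mt2 was lower by 0.78 on the log2 scale, with overlap between mice but the same direction in each. Txnip stood at 1206, 1159 and 1220.3 against 675, 713 and 742 CPM (0.67 ± 0.05) and G0s2 at 266, 324 and 209 against 133, 193 and 159 CPM (0.64 ± 0.08). For these 2 genes members were the higher set, without overlap.

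**Figure D4:**
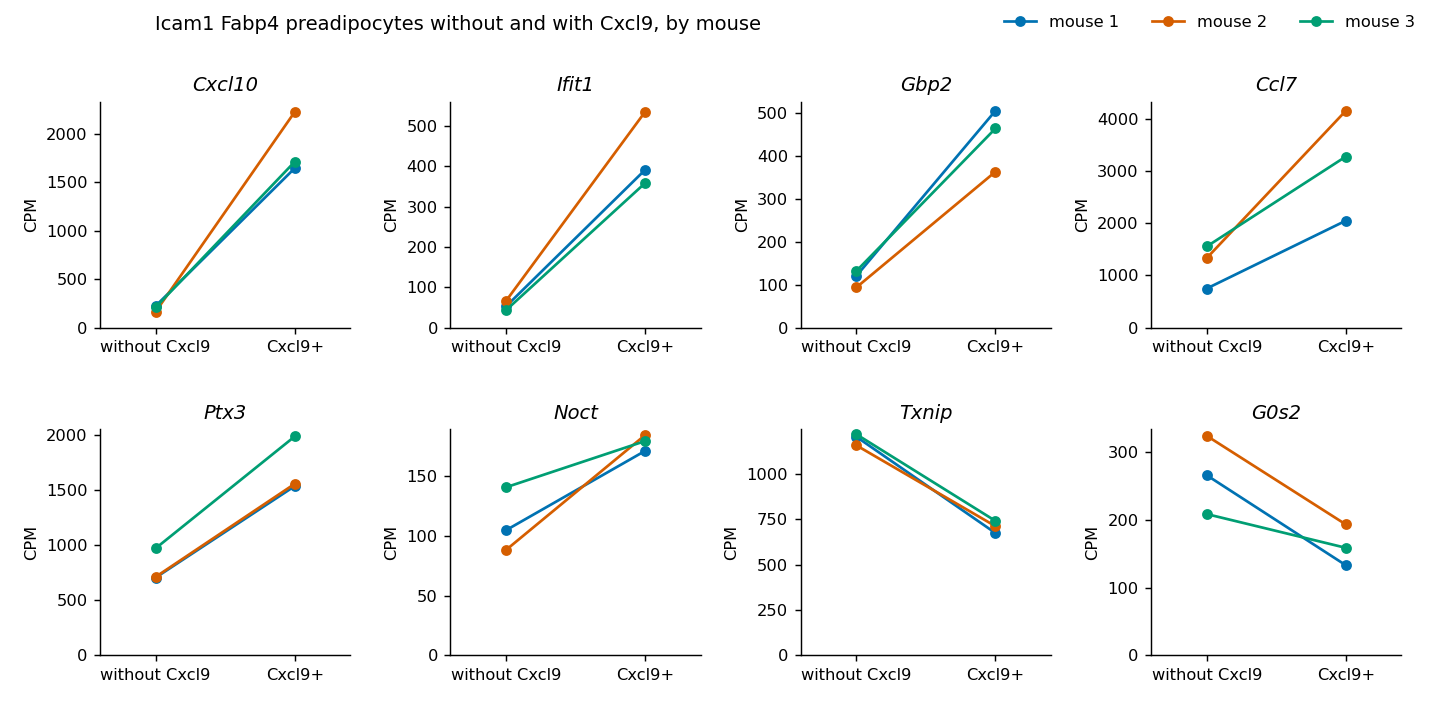
Level (CPM, linear axes from 0) of 8 genes in members and in Cxcl9-positive preadipocytes; each line joins the 2 sums of 1 mouse. Cxcl10, Ifit1, Gbp2, Ccl7, Ptx3 and Noct are lower and Txnip and G0s2 higher in members in all 3 mice.

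Of the genes higher in members at 50 CPM or more, Swt1, an RNA endonuclease, led with 87.7, 91.6 and 114 CPM against 46.1, 47.4 and 29.0 CPM (1.11 ± 0.13). The Notch target Hes1 (0.74), Sfrp2 (0.90, with overlapping mice) and the homeobox gene Gsc (0.62) followed, with the heat shock genes Hspa1a (0.67) and Hspa1b (0.63, with overlapping mice), near-identical copies whose reads may be split between them. Hspa1a and Hspa1b belong to the list of genes that respond to dissociation, of which 8 of 22 were higher and 4 lower (Myc, Fosb, Klf4 and Zfp36). Plin2 was higher by 0.33. Of 18 basement membrane genes none was higher and 3 were lower in members, Sparc (-0.12), Col4a1 (-0.15) and Col4a2 (-0.14), all 3 with overlapping mice. Each of these 3 calls was lost without any 1 mouse (edgeR, adjusted p between 0.0589 and 0.430), with DESeq2 (0.134 to 0.354), with no replicate block, with no low-count filter and with library sizes alone. Ntf3 was higher by 0.41 (edgeR, adjusted p 0.0129), a call lost without mouse 1 or mouse 2 (adjusted p 0.264 and 0.159), with DESeq2 (0.351) and on thinning (0.393), at log2 fold changes between 0.315 and 0.387. Among regulators Stat5a, which relays growth hormone signals, was lower (-1.12), at 22.5, 23.9 and 47.5 CPM in members against 40.2, 40.9 and 118 CPM, with mouse 3 apart from the others in both sets.

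Endothelial transcripts moved with this comparison. Endothelial markers were tested through the Cxcl9-positive counts, so their calls are not counted. Cldn5 stood at 2.98, 13.2 and 1.77 CPM against 100.5, 96.3 and 0 CPM, so mice 1 and 2 carried it in Cxcl9-positive cells and mouse 3 did not. Cells with at least 5 UMIs over 4 endothelial genes were 13, 11 and 0 of the 203, 139 and 160 Cxcl9-positive cells. Of 14 lipid uptake genes tested, 1 was higher in members, Vldlr, and 4 lower: Apoe, Cd36, Fabp5 and Gpihbp1, itself one of the 4 endothelial genes. Cd36 (-0.54) and the fatty acid carrier gene Fabp5 (-1.45) were lower in mice 1 and 2 but not in mouse 3. Without cells carrying any other-cell marker UMI their log2 fold changes were 0.09 and 0.045, and neither passed. The Cd36 call was also lost without mouse 1 and without mouse 2 (log2 fold changes -0.50 and -0.27). All 17 interferon-gamma response genes and 14 of 18 NF-kB targets were lower without those cells, and also when only cells of at least 5 endothelial, mural or muscle UMIs were left out, a setting chosen after the data were seen.

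Since a cell could enter by Fabp4 or by Icam1, the members were compared among themselves, with log2 fold changes as Fabp4-leaning over Icam1-leaning. Fabp4-leaning members (at least 3 UMIs of Fabp4, at most 1 of Icam1) numbered 652, 308 and 384 in mice 1, 2 and 3, and Icam1-leaning members (at least 3 of Icam1, at most 1 of Fabp4) 332, 261 and 463. Of 10397 genes 578 were higher (5.56%) and 868 lower (8.35%) in the Fabp4-leaning sums, together 13.9%; with library sizes alone the split was 776 higher and 715 lower. Without mouse 3 the counts were 268 and 486. Because the sets were chosen on Fabp4 and Icam1, genes that follow either from cell to cell differ by that choice. The p-values measure how repeatable a difference was over 3 mice. Pparg stood at 54.5, 57.0 and 59.7 CPM in Fabp4-leaning and 37.9, 33.2 and 29.6 CPM in Icam1-leaning members (0.71 ± 0.11, edgeR, adjusted p 0.00048). Both sets were above all progenitor sums given above.

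Some genes of lipid uptake, droplets and sterol synthesis were higher in Fabp4-leaning members. Cd36 stood at 318, 169 and 198 CPM in Fabp4-leaning against 69.3, 10.5 and 22.8 CPM in Icam1-leaning members (2.83 ± 0.20). Without cells carrying other-cell UMIs its log2 fold change was 2.69. Plin2 stood at 798, 865 and 1061 against 341, 282 and 359 CPM (1.42 ± 0.08). The sets did not overlap for either gene. Lpl (0.66), Angptl4 (0.78), Plin4 (0.95), Fabp5 (1.37) and Nr1h3 (0.70) were also higher, but the Nr1h3 call was lost with DESeq2 and on thinning (adjusted p 0.0564 and 0.0795). Of 20 adipogenic regulators tested, 2 were higher, Pparg and Nr1h3, and 5 lower: Cebpd, Fosl2, Ebf2, Stat5a and Cebpb. In all 6 of 13 lipid uptake genes were higher and 1 lower, 5 of 11 droplet genes higher and none lower, and 12 of 20 sterol genes higher and none lower, among them Fdps (0.96) and Hmgcs1 (0.76). The 6 lipid uptake genes include the endothelial gene Gpihbp1, at 33, 129 and 14 UMIs in Fabp4-leaning and 0, 0 and 0 in Icam1-leaning members. It could be tested only through the Fabp4-leaning sums, so its call is not read as a result. Of 11 fatty acid synthesis genes 1 was higher, Insig1, and none lower, with a median of -0.01.

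Of the marker genes, Txnip stood at 1355, 1407 and 1745 CPM in Fabp4-leaning and 901, 803 and 746 CPM in Icam1-leaning members (0.82 ± 0.09). Col15a1 (0.70), G0s2 (0.79) and Enpp2 (0.64) were higher too, and Col4a1 by 0.28 with overlapping mice. After thinning, a UMI of Ntf3 was found in 20.03 ± 3.48% and 16.7 ± 4.87% of the 2 sets, whose SD ranges overlap. Other genes with large rises were Lamc3 (2.83), Cldn15 (2.06) and Cox8b, a cytochrome oxidase subunit gene of muscle and brown fat, at 38.3, 95.8 and 45.5 CPM against 3.41, 7.27 and 8.32 CPM (3.18 ± 0.20). The class I histocompatibility genes H2-Q7 (2.04) and H2-Q10 (1.72) rose together and are close paralogs whose reads may be split. Car3, a carbonic anhydrase of adipocytes and muscle, rose by 1.70, and by 1.29 without cells of at least 5 endothelial, mural or muscle UMIs. A single cell held 116 of the 198 Car3 UMIs of the Fabp4-leaning set in mouse 2, and the Car3 call was lost with DESeq2 (adjusted p 0.193). Myl1, a muscle myosin light chain, had the largest value, 13.3, 323 and 7.52 CPM against 0.757, 4.36 and 1.23 CPM (5.71 ± 0.28), but without the muscle cell of mouse 2 and the other such cells it was 2.51.

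Inflammatory and complement genes were higher in Icam1-leaning members, and Icam1 itself is a known NF-kB target. Of 18 NF-kB targets 16 were lower in Fabp4-leaning members and none higher, with a median of -0.82. Of 22 genes that respond to tissue dissociation, 11 were lower too and 2 higher, Egr2 and Hspa1a. How much of these differences comes from the digestion was not tested. Il6 stood at 55.7, 46.1 and 94.2 CPM against 169, 289 and 321 CPM in Icam1-leaning members (-2.05 ± 0.14), and the neutrophil chemokine gene Cxcl2 (-2.66), Tnfaip3, an NF-kB brake (-1.48), and Ccl2 (-1.30) were lower. Of 10 complement genes 9 were lower. C3 stood at 729.8, 711 and 1131 against 2178, 2531 and 2879.9 CPM (-1.64 ± 0.07), with C4b (-2.43) and the inhibitor clusterin, Clu (-3.14), also lower. C7, a terminal complement gene, fell by 3.04 on the log2 scale, at 45.9, 5.97 and 74.0 against 459, 39.6 and 465 CPM. Interferon-gamma response genes were lower in 11 of 16 and higher in 1.

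Most progenitor genes and interstitial matrix genes that passed the test were also higher in Icam1-leaning members. Progenitor genes were lower in Fabp4-leaning members in 11 of 17 and higher in 1. Procr stood at 36.8, 36.6 and 55.4 CPM in Fabp4-leaning and 122, 216 and 149 CPM in Icam1-leaning members (-1.97 ± 0.15), and Sfrp2 (-1.44) and Smpd3 (-1.93) were lower. Fn1 (-1.40) and Col14a1 (-2.08) went the same way, within 13 lower and 6 higher of 25 interstitial genes. The Fn1 call was lost with DESeq2 (adjusted p 0.0527). Basement membrane genes had 6 higher and 3 lower of 17 in Fabp4-leaning members. Sult1e1, the estrogen sulfotransferase, fell most, at 17.6, 22.5 and 13.1 against 204, 326 and 101 CPM (-3.61 ± 0.12). The Wnt inhibitor Dkk2 (-2.76), Plac8 (-2.39), angiotensinogen Agt (-2.38), Igfbp3 (-2.38) and Igf1 (-1.55) were lower.

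Of the study's Cd44 set, Ptx3 (-1.15), Mt2 (-1.0) and Cd44 (-0.51) were lower in Fabp4-leaning members. Cd44 stood at 63.3, 58.1 and 72 against 65.1, 87.3 and 118 CPM, nearly equal in mouse 1, and its call was lost without mouse 3 (edgeR, adjusted p 0.188), with DESeq2 (0.0879) and with UMI limits scaled to depth (0.0879). Noct did not pass the test. Genes of adipogenesis-regulatory cells were lower in 6 of 9, such as Gdf10 (-1.41) and Vit (-2.57), and Meox1 was higher (1.24).

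**Figure D5:**
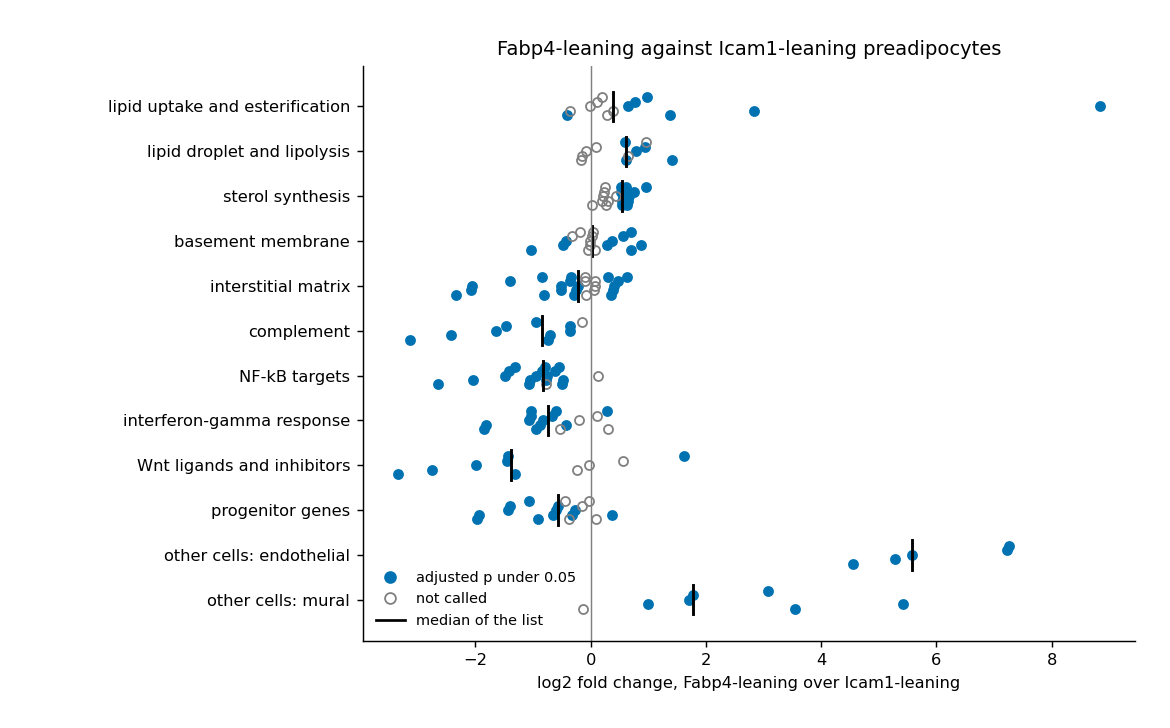
Log2 fold change of Fabp4-leaning over Icam1-leaning members (x axis) for the tested genes of 12 lists; each point is 1 gene, filled where the adjusted p was under 0.05 (edgeR, n = 3 mice), and the bar is the list's median. Lipid uptake, droplet and sterol genes lie mostly right of 0 and NF-kB and complement genes mostly left of it. The endothelial genes had enough counts to test through the Fabp4-leaning sums, and the mural gene Acta2 was near 0 to 1 CPM in Icam1-leaning members. The places of the endothelial and mural medians are therefore not read as a result.

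Markers of other cells were found more in the Fabp4-leaning set. Of 12 endothelial markers 5 and of 11 mural markers 7 had enough counts to test, through the Fabp4-leaning sums in the case of the endothelial genes, so no count of calls is given. Cldn5 stood at 6.96, 36.1 and 6.73 against 0.379, 0.582 and 0 CPM and Acta2 at 41.6, 4.34 and 79.1 against 0.379, 1.16 and 0.925 CPM. Cells with at least 5 endothelial UMIs were 8, 16 and 3 of the Fabp4-leaning and 0, 0 and 0 of the Icam1-leaning members, and cells with at least 5 mural UMIs 8, 3 and 4 against 0, 1 and 1. Capillary endothelium is known to express Fabp4. Without these cells 12 sterol, 5 lipid uptake and 5 droplet genes were higher and 16 NF-kB targets lower.

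Most genes varied little over the 3 mice. Among 2795 genes of at least 50 CPM in members, the median ratio of the highest to the lowest mouse was 1.29, and 142 genes (5.08%) exceeded 2. C7 was the extreme, at 142, 16.9 and 204 CPM in mice 1, 2 and 3, a ratio of 12. It varied alike in progenitors (353, 51.1 and 444 CPM) and in Clec11a-positive cells (1806, 149 and 1385 CPM), with mouse 2 lowest in each. Fgf10 (ratio 3.85) and Cd36 (2.49) were also lowest in mouse 2, while the B cell chemokine gene Cxcl13, at 70.3, 212 and 155 CPM, was highest there. Mouse 2 differed from the others in depth as well, and the part of depth in these ratios was not tested.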

How the data were processed

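Whole-number UMI counts per gene and barcode, made with Cell Ranger (4.0.0 per the file headers, 2.1.1 in the submitters' notes; build mm10), were deposited by the authors as 1 filtered matrix per mouse. No cell annotation was used. Barcodes with over 500 genes and under 5% mitochondrial UMIs were kept; no doublet caller was run. Members and gene lists were chosen with earlier results of these data known. UMIs were summed per mouse and set of at least 20 cells (so Cited1-positive cells had no mouse 2 value, and a fit on the other 2 mice was made but not used), filtered by filterByExpr, scaled by TMM and fitted in edgeR 4.0.16 (R 4.3.3) by quasi-likelihood with mouse as a block, since each mouse gives both sums. Same-mouse deviations correlated at 0.345 to 0.650. Genes used to choose cells were not tested. SE is the absolute log2 fold change over the root of F. Named were the 12 (progenitors) or 8 (other comparisons) largest rises and falls at an adjusted p under 0.05, with 1 sign in every mouse and at least 50 CPM, plus genes of the lists. Positions came from GENCODE and promoters from RefSeq (GRCm38.p6). Alternatives were library-size scaling, DESeq2 1.42.0, other filters and gates, thinning, and leaving out each mouse, cells of high UMIs or other-cell UMIs. Intervals cover counting error only.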

Additional observations from a re-analysis of the deposited data

How the results depend on the processing

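Of the named genes' log2 fold changes under the alternatives, 1302 of 1313 against progenitors, 462 of 530 against Cxcl9-positive cells and 614 of 642 between leaning sets kept their direction and their side of the threshold. Of the others, 6, 65 and 28 kept their direction but lost the call, some with a smaller fold, 3 gained one (Kdr, lower than in progenitors) and 5 reversed. The reversed values were Kdr against progenitors under 10% mitochondrial UMIs (0.103) and without mouse 1 (0.659, and -2.26 without mouse 2), Cd36 (0.086) and Fabp5 (0.045) against Cxcl9-positive cells without cells of other-cell UMIs, and Cd36 (0.095) without cells of at least 5 such UMIs, an alternative chosen after the data were seen.

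Counts of called genes depended on the fit. With no replicate block, 1837 genes were higher and 1985 lower than in progenitors, 0 and 60 against Cxcl9-positive cells (edgeR, with 693 at an unadjusted p under 0.05), and 76 and 177 between leaning sets. The block is the mouse that gave both sums, and without it 13 of 17 interferon-gamma genes and no NF-kB gene were called against Cxcl9-positive cells. In the latter comparison DESeq2 gave 47 higher and 363 lower, thinning 70 and 363, a sum of at least 6 UMIs 91 higher, no low-count filter 249 higher and library sizes alone 335 higher. Between leaning sets DESeq2 gave 195 and 415 and thinning 328 and 561. Leaving out 1 mouse gave 2816 to 3402 higher and 3363 to 3665 lower against progenitors, 63 to 215 and 397 to 735 against Cxcl9-positive cells, and 268 to 702 and 486 to 949 between leaning sets. The cause of these differences was not tested. The members' mean share of kept cells changed by less than 1 SD in every alternative run. The planned comparison with Cited1-positive cells was fitted on mice 1 and 3 alone, and its calls are not used. Genes at a few CPM rest on few UMIs in the smaller sets.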
